A study of Mus musculus with 2 samples.

Results

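Ephrins, semaphorins and their receptors were examined in mouse epidermal keratinocytes that carry an active Smad1 transgene and in wild-type keratinocytes. The members were the gene spots of both arrays named for an Eph receptor (Epha or Ephb), an ephrin (Efna or Efnb), a semaphorin (Sema), a plexin (Plxn) or a neuropilin (Nrp1 and Nrp2). They came to 53 genes, read by 91 probes, of 27975 genes named on the arrays. RNA of wild-type FVB/NJ mice was labelled with Cy3 and RNA of K14-caSmad1 mice of the same strain with Cy5, and each of 2 Agilent arrays held 1 pair of RNAs. All keratinocytes were primary cells from the epidermis, taken 20 days after birth. K14-caSmad1 mice overexpress a constitutively active form of Smad1, a transcription factor of bone morphogenetic protein (BMP) signalling. K14 commonly stands for the keratin 14 promoter, which is active in basal epidermal cells and the outer root sheath of hair follicles. The labels give neither the number nor the sex of the animals, nor whether 1 transgenic line was used.

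Eph receptors are receptor tyrosine kinases that bind ephrins on neighbouring cells. Ephrin-A ligands are held to the membrane by a lipid anchor and ephrin-B ligands span it, and signals pass into both cells, where they change adhesion, movement and the placement of tissue borders. Semaphorins are secreted (class 3) or membrane-bound guidance proteins that signal through plexins, with neuropilins as co-receptors for most of the secreted ones. Both systems were first known for guiding axons, and in skin they are known for roles in keratinocyte adhesion and differentiation, in hair follicles, and in nerves and vessels.

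The measure throughout is the log2 ratio of K14-caSmad1 over wild type within an array, so that -1 is a 2-fold lower and 1 a 2-fold higher signal. The labels describe both arrays as biological replicates. The arrays differed in log2 ratio with an SD of 0.0946 over 12287 probes spotted once, against 0.107 predicted from repeated spots of 94 probes. For means of repeated spots the SD was 0.0519, above the 0.0347 predicted. Because single spots differed by no more than spot noise, the arrays were counted as 1 sample, although the repeated spots differed by more: each value is given for both arrays, no error between animals can be given, and p-values measure only how well the arrays repeat. Because dyes were not swapped, dye and genotype cannot be told apart for any gene. Smad1 itself, whose probe is not known to lie in the transgene and so does not check the labels, had log2 ratios of 0.28 and 0.26. Of 12 keratinocyte markers 11 were well above background in wild type, Dsg3 being the exception, and 10 in K14-caSmad1. Of the 11 tested, 6 were at least 2-fold higher in K14-caSmad1 cells, among them Trp63, whose other tested probe read -0.78. Another 2 had ratios below 0, Sfn at -0.74 and Cdh1, not above background in K14-caSmad1, at -0.89. Of 12 hair matrix and hair shaft markers 11 were tested and all of them were at least 2-fold lower, with a median log2 ratio of -3.44 and a summed log2 signal of 20.21 and 20.18 in wild type against 16.38 and 16.27 in K14-caSmad1. The part of hair cells in the results that follow was not tested. In such bulk RNA, fewer cells of a type and less RNA per cell cannot be told apart.

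A member was tested where at least 1 channel passed the scanner software's background test on both arrays for one of its probes. This held for 32 of the 53 genes, and 27 of these passed in both channels on both arrays. None of the 32 was at least 2-fold higher on both arrays, where 4.08% of all tested genes were, and 6 were at least 2-fold lower, where 9.81% of all tested genes were. The 6 were Sema7a, Ephb1, Nrp2, Sema6a, Ephb3 and Plxnb2, which include members of the semaphorin, EphB, neuropilin and plexin groups but no ephrin. Among the 27 genes measured in both channels the counts were 0 higher and 5 lower, against 4.62% and 8.65% of the 9913 such genes in all. The ratio lay above 0 for 12 of the 32 members and below 0 for 20, with a median of -0.24 beside -0.03 over all 11752 tested genes. In limma's moderated test with Benjamini-Hochberg adjustment over all tested genes, 30 of the 32 had an adjusted p below 0.05, 11 higher and 19 lower. Over all tested genes 87.1% passed, 40.8% higher and 46.3% lower, so that passing says little of a member. Without any filter on detection the 53 genes held the same counts, 0 higher and 6 lower. No share of all genes without this filter is given here, so these counts cannot be set against one.

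**Figure D1:**
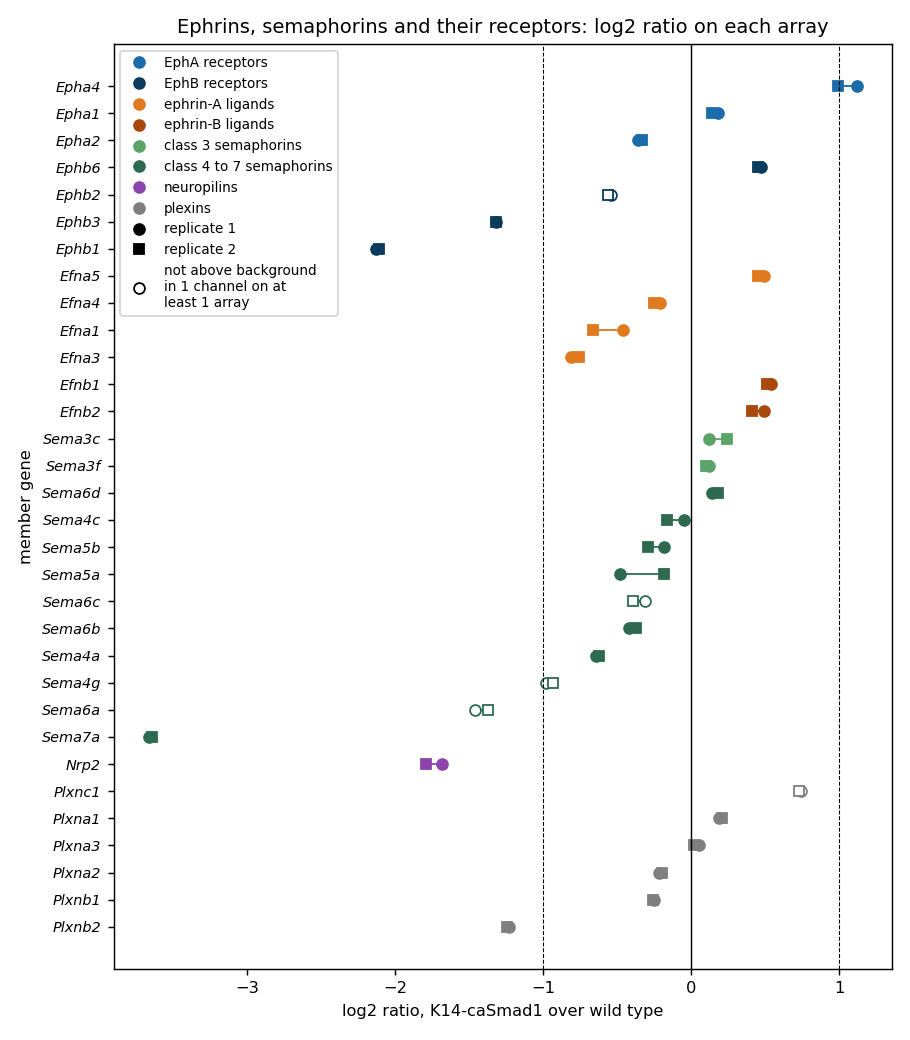
Log2 ratio of K14-caSmad1 over wild type (horizontal axis) for the 32 tested member genes (rows, coloured by role), with a circle for replicate 1 and a square for replicate 2. Dashed lines mark 2-fold, and hollow symbols mark genes not above background in 1 channel on at least 1 array. Sema7a lies farthest from 0, at -3.66 and -3.64.

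The largest difference among the members was that of Sema7a, a membrane-anchored semaphorin that binds plexin C1 and integrins. Its normalized log2 signal was 13.56 and 13.22 in wild type (replicates 1 and 2) and 9.91 and 9.58 in K14-caSmad1. Both transgenic values lay well below both wild-type values, with no overlap, and the log2 ratios were -3.66 and -3.64. This is a 12.5-fold lower signal (limma adjusted p = 1.53e-05). With the arrays counted as 1 sample, a lack of overlap, here and below, shows only that the arrays repeat. How many of all genes lack overlap was not counted. The probe lies on chr9:57810607-57810666 of mm9, plus strand, and the other positions of probes below are on mm9 too. Whether a probe lies in a coding exon or a UTR was not annotated in the sources used here.

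Most of the membrane-bound semaphorins (classes 4 to 7), the group of Sema7a, had lower signals. Of 13 genes 10 were tested, 9 had a ratio below 0 and Sema7a and Sema6a were at least 2-fold lower. Sema6a, a transmembrane semaphorin that binds A-type plexins, read 9.94 and 9.76 in wild type and 8.48 and 8.39 in K14-caSmad1, with log2 ratios of -1.46 and -1.37. It was not well above background in K14-caSmad1 on either array, so its signal there is a bound and it was at least 2.23-fold lower. Such bounds set the brighter group's mean against the dimmest signal called well above background, or the other group's own signal where higher. They are open to dye bias and hold for the main processing only. Without background subtraction the ratio of Sema6a (-0.93) came to less than its bound. So did those of Sema4g (-0.63), Sema6c (-0.21) and Plxnc1 (0.47), described below. The 2-fold call of Sema6a was lost without background subtraction, at -0.93, and with all spots kept in the background fit, at -0.81. It was also lost with the mean of the gene's tested probes, at -0.74. The second of these probes, starting 3973 bases from the first, was dim, at 8.85 and 8.78 in wild type and not above background in K14-caSmad1. Its log2 ratios were -0.02 and -0.09, so it did not show the fall of the brighter probe.

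Sema4g, another transmembrane semaphorin, was also above background in wild type alone. It read 9.73 and 9.62 there and 8.75 and 8.69 in K14-caSmad1, at least 1.92-fold lower. Sema6c likewise gave a bound, at least 1.24-fold lower, from log2 ratios of -0.31 and -0.39. Sema4a, known as a semaphorin of immune cells, was bright in both groups, with 13.30 and 13.15 in wild type, 12.66 and 12.53 in K14-caSmad1 and ratios of -0.64 and -0.62. Sema6b stood at -0.42 and -0.37, and Sema5b at -0.18 and -0.29. Sema5a was the tested member whose arrays lay farthest apart, at -0.48 and -0.18. Sema4c, at -0.05 and -0.16, did not pass limma's test (adjusted p = 0.0606) and turned to 0.11 with median centring. Sema6d was the single gene of these classes above 0, at 0.14 and 0.18.

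Of the 7 secreted class 3 semaphorins, which signal through neuropilins, 2 were tested. Sema3c stood at 0.12 and 0.24 and Sema3f at 0.12 and 0.10, both small against a 2-fold change. A second probe of Sema3f, starting 588 bases nearer the 5′ end of the gene, read -0.98 and -0.76, with K14-caSmad1 above background on 1 of 2 arrays, and the mean of both probes was -0.38. The direction for Sema3f thus depended on the probe. Their opening bases are shown because the difference between them can be judged only with the probes at hand (first 30 of 60 bases, chr9:107584200-107584259 and chr9:107584788-107584847, minus strand).
Sema3f, brighter probe: aggtgcctagtcaaggccaacctttcccag
Sema3f, other probe: cagggaggcgccaggagcacttaggcctcc

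Neuropilin 2 (Nrp2), a co-receptor for class 3 semaphorins and for vascular endothelial growth factors (VEGF), was lower. Its signal was 10.64 and 11.45 in wild type and 8.96 and 9.66 in K14-caSmad1. The arrays differed in level, by more in wild type than for the other genes 2-fold apart, but on each of them the transgenic channel was the lower one, and the ranges of the groups did not overlap. The log2 ratios were -1.68 and -1.79, a 3.33-fold lower signal (limma adjusted p = 4.64e-05, probe at chr1:62865129-62865188, plus strand). Endothelial cells are another source of neuropilins. The signals of 14 endothelial markers summed to 12.68 and 12.61 (log2) in wild type and 12.25 and 12.18 in K14-caSmad1. The 5 tested ones all had ratios below 0, and 1 of them, Prox1, was 2-fold lower. The other 9 were not above background in any channel, and the part of endothelial cells in the Nrp2 result was not tested. Neuropilin 1 (Nrp1), the other co-receptor, was not well above background in any channel.

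Among the plexins, the signalling receptors of semaphorins, Plxnb2 was 2-fold apart. Plexin B2 is a receptor for class 4 semaphorins. It read 13.37 and 13.26 in wild type and 12.14 and 12.02 in K14-caSmad1, with log2 ratios of -1.23 and -1.24. The groups did not overlap and the signal was 2.36-fold lower (limma adjusted p = 3.88e-05, probe at chr15:88986248-88986307, minus strand). Plxnb1, a close relative, stood at -0.25 and -0.26 and turned to 0.03 with median centring. Plxnc1, the plexin that binds Sema7a, differed in the other direction. It was above background in K14-caSmad1 alone, at 9.50 and 9.41 against 8.76 and 8.68 in wild type. Its bound, at least 1.67-fold higher, equals its measured fold in the main processing. Without background subtraction the log2 ratio of Plxnc1 was 0.47. Of the A-type plexins, which pair with neuropilins, 3 were tested, all under 2-fold. Plxna1 stood at 0.19 and 0.21 (0.51 with median centring), and Plxna3 at 0.05 and 0.02 (limma adjusted p = 0.284). Plxna2 stood at -0.22 and -0.20, and turned to 0.10 with median centring. Of its 2 further probes, one stood at -0.34 and the other, not above background in wild type, was at least 1.35-fold higher.

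Of the EphB receptors, which bind ephrin-B ligands, 4 of 5 were tested and Ephb1 and Ephb3 were at least 2-fold lower. Ephb1 read 11.15 and 10.98 in wild type and 9.01 and 8.87 in K14-caSmad1. Every transgenic value lay below every wild-type value, with log2 ratios of -2.13 and -2.11 and a 4.36-fold lower signal (limma adjusted p = 2.13e-05, probe at chr9:101824731-101824790, minus strand). Ephb3 read 12.43 and 12.20 in wild type and 11.12 and 10.88 in K14-caSmad1. Its groups did not overlap either, both ratios were -1.32, and the signal was 2.49-fold lower (limma adjusted p = 3.58e-05, probe at chr16:21223025-21223084, plus strand). Ephb2 stood at -0.54 and -0.56 but was above background in K14-caSmad1 on 1 of 2 arrays. Ephb6, whose kinase domain is inactive, was higher, at 0.47 and 0.45.

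**Figure D2:**
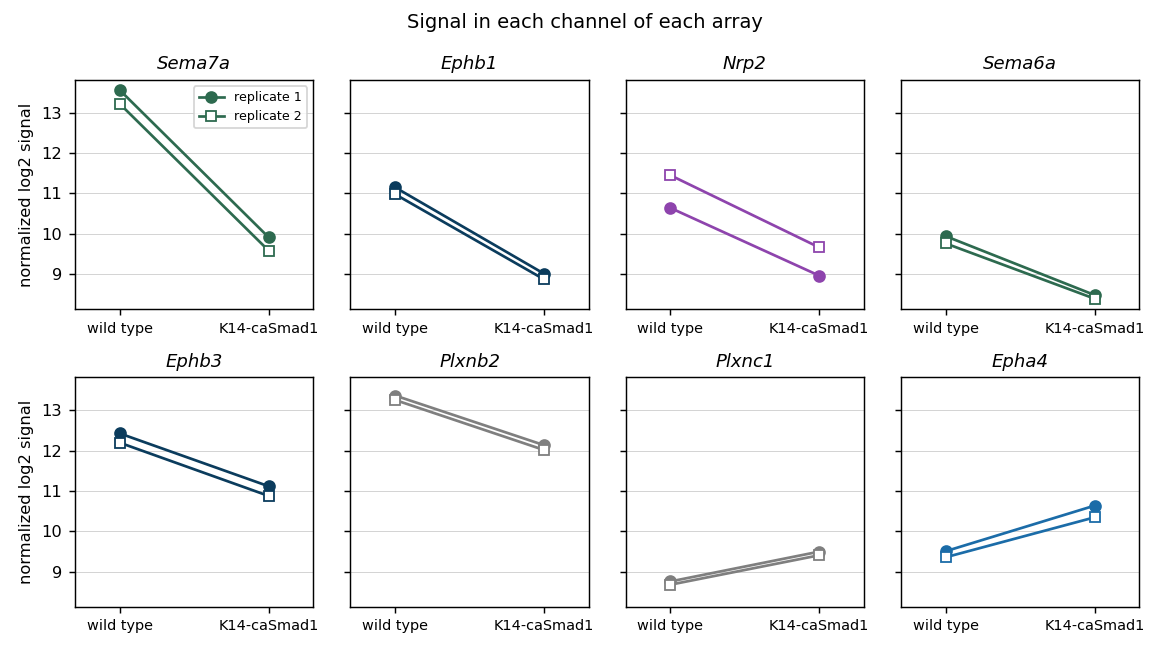
Normalized log2 signal (vertical axis) in wild type and K14-caSmad1 for the 6 genes at least 2-fold lower and for Epha4 and Plxnc1, with a line for each array (filled circles, replicate 1, and hollow squares, replicate 2). Lines fall in the first 6 panels and rise in the last 2, and the lines of Nrp2 start farther apart, at 10.64 and 11.45, than those of the other genes.

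Of 9 EphA receptors, which bind ephrin-A ligands, 3 were tested. Epha4, which also binds ephrin-B ligands, came nearest to a 2-fold rise. It read 9.51 and 9.36 in wild type and 10.64 and 10.35 in K14-caSmad1, with no overlap and log2 ratios of 1.12 and 0.99, so that the second array fell just short of 2-fold (2.08-fold higher in the mean, limma adjusted p = 0.00013). A second, dimmer probe of Epha4 went the other way, at -0.33 and -0.38. It starts 1059 bases nearer the 5′ end of the gene than the brighter probe. Any direction for Epha4 therefore rests on which probe is read. The opening 30 bases of each are given so that the transcripts they match can be looked up (chr1:77364688-77364747 and chr1:77365747-77365806, minus strand).
Epha4, brighter probe: ccaataaatatttattgcattctgacaggg
Epha4, other probe: tgcctccgatacacaatgctaaagtgacat
Epha1, an Eph receptor of epithelial cells, stood at 0.18 and 0.14. Epha2, an epidermal receptor for ephrin-A1, stood at -0.36 and -0.33, and at -0.04 with median centring.

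The ephrins themselves, the ligands of these receptors, moved by less than 2-fold. Among ephrin-A ligands, Efna3 was lower, at 12.71 and 12.49 in wild type and 11.90 and 11.72 in K14-caSmad1 (log2 ratios -0.81 and -0.76). Efna1, which binds Epha2, was lower as well, at 11.18 and 11.12 against 10.73 and 10.46 (log2 ratios -0.46 and -0.66). Efna4 stood at -0.21 and -0.25, and at 0.04 with median centring. Efna5 differed from them in direction. It was higher in K14-caSmad1, at 12.35 and 12.10 against 11.85 and 11.65 (log2 ratios 0.49 and 0.45), and its lowest value under the other ways of processing was 0.47.

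Both tested ephrin-B ligands were higher. Efnb1 read 11.56 and 11.39 in wild type and 12.10 and 11.89 in K14-caSmad1, with log2 ratios of 0.54 and 0.51. Efnb2 read 12.22 and 12.10 in wild type and 12.71 and 12.52 in K14-caSmad1, with log2 ratios of 0.49 and 0.41. Neither gene's groups overlapped, which again shows only that the arrays repeat. Of their receptors, Ephb1, Ephb2 and Ephb3 had ratios below 0, while Ephb6 and the brighter probe of Epha4 had ratios above 0 like the ligands. These signs held under the 6 other ways of processing tried.

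Efna1, Efna3 and Efna4 are neighbours on mouse chromosome 3 in the RefSeq gene order of GRCm38.p6. With the 4 genes on either side, 9 of 11 genes of the stretch were tested and 8 of these had ratios below 0, where 52.3% of all tested genes did. With median centring 5 of the 9 did, beside 35.9% of all genes. The 9 genes include Efna1, Efna3 and Efna4, described above as lower and used to place the stretch. Neither count can therefore be set against the share of all genes. In order, Trim46 stood at -0.48, Krtcap2 at -0.18, Dpm3 at -1.78 and Slc50a1 at -0.62, then Efna1 at -0.56, Efna3 at -0.79 and Efna4 at -0.23, then Adam15 at -0.20 and Zbtb7b at 0.25. The lowest ratio in this stretch was that of Dpm3, which encodes a subunit of an enzyme of protein glycosylation. The genes on either side of the ephrins were chosen by position alone.

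The other 21 members were not tested. Of these, 18 were not well above background in any channel of either array: Efna2, Efnb3, Epha3, Epha5, Epha6, Epha7, Epha8, Epha10, Nrp1, Plxna4, Plxnb3, Plxnd1, Sema3a, Sema3b, Sema3g, Sema4b, Sema4d and Sema4f. Ephb4, Sema3d and Sema3e passed on at most 1 array. A gene in this group may be expressed below what these arrays can show.

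Levels of other marker lists also differed between the groups, some lower and some higher in K14-caSmad1, and their part in these results was not tested. The melanocyte list went from 13.13 and 13.05 to 12.29 and 12.12, with 4 of 11 genes, Sox10 and Tyr among them, not above background. Of the Schwann cell and nerve markers 6 were tested and 5 of these had ratios below 0, among them Tubb3 at -2.51 and Erbb3 at -0.89. The fibroblast list rose in sum from 13.53 and 13.57 to 14.26 and 14.25, but its collagen genes Col1a1, Col1a2 and Col3a1 were each at least 2.1-fold lower, while Vim had a log2 ratio of 1.39. Pdgfra, Lum, Dpt and Twist2 were not above background. The T cell list went from 14.53 and 14.36 to 14.94 and 14.74, with Cd3e not above background. The Langerhans and myeloid list went from 14.37 and 14.80 to 14.61 and 14.93, with Aif1 not above background. The keratinocyte list went from 18.79 and 18.64 to 19.54 and 19.52.

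The calls depended on how the background was fitted. With 36 spots of uneven local background on replicate 1 kept in the background fit, Sema7a alone of the 6 genes remained 2-fold lower on both arrays, 3.12% of the tested members beside 4.02% of all genes. On replicate 1 the ratios were then -2.84 for Sema7a, -0.68 for Ephb1, -0.44 for Nrp2, -0.93 for Ephb3, -0.97 for Plxnb2 and -0.26 for Sema6a. On replicate 2, which has no such spots, they stayed as given above. In the scanner's own processed signals the 6 genes were at least 2-fold lower, Ephb2 and Sema4g joined them at -1.41 and -2.23, and Epha4 and Plxnc1 were 2-fold higher at 1.66 and 1.84. All genes then had 10.7% higher and 16.0% lower. With median centring in place of loess, Plxnb2 fell short of 2-fold at -0.95 and Epha4 passed at 1.34. Median centring moved the median of all genes from -0.03 to 0.22 and that of the members from -0.24 to 0.00, so that the members' median lay -0.22 from that of all genes. Of all genes called 2-fold, 29.4% were higher with loess and 57.8% with median centring.

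**Figure D3:**
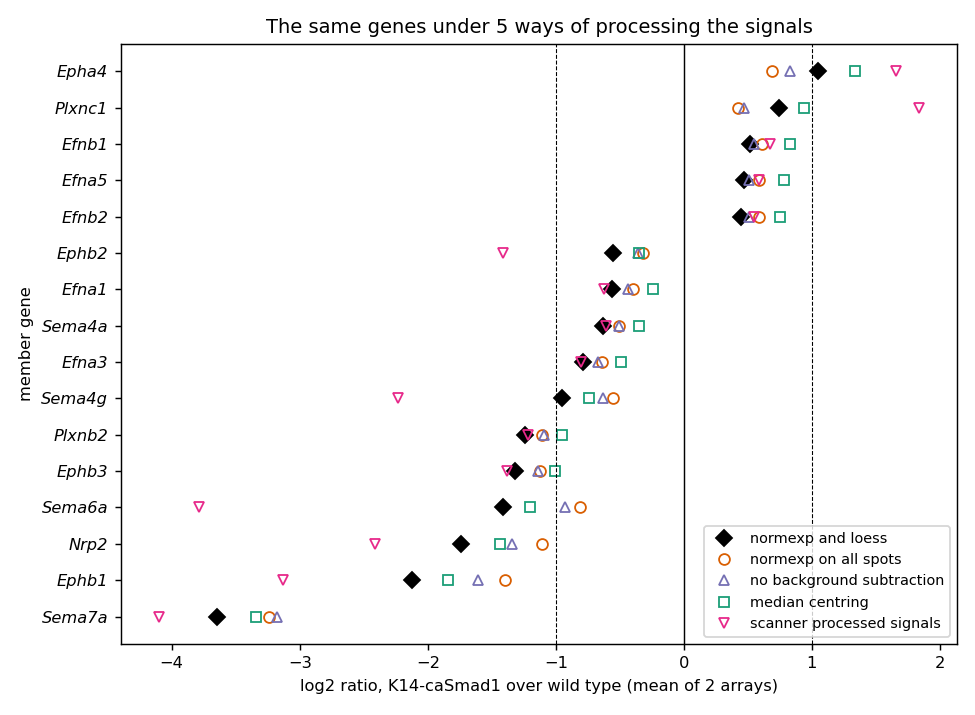
Log2 ratio of K14-caSmad1 over wild type (mean of 2 arrays, horizontal axis) for selected member genes (rows), with a symbol for each of 5 ways of processing the signals and dashed lines at 2-fold. Symbols of each gene drawn lie on one side of 0, and those of the dim genes Sema6a, Sema4g and Plxnc1 spread widely, Sema6a from -0.81 to -3.79. The genes whose sign changed with the processing, Efna4, Plxna2, Plxnb1, Sema4c and Sema3f, were left out of the figure. Genes measured in both channels spread as well, Ephb1 from -1.40 to -3.13 and Nrp2 from -1.11 to -2.41.

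The promoters of 5 of the 6 lower genes and of Epha4 are shown, since Smad1 is a DNA-binding factor and any search for its motifs starts there. They are the 250 bases before the first listed RefSeq start on GRCm38.p6, 5′ to 3′ on the gene's strand, with CAGAC, the Smad-binding element, in capitals on either strand (GTCTG on the other). They lie at chr9:57939862-57940111 for Sema7a, chr9:102354694-102354943 for Ephb1, chr1:62703067-62703316 for Nrp2, chr16:21204545-21204794 for Ephb3, chr15:89180789-89181038 for Plxnb2 and chr1:77515089-77515338 for Epha4.
Sema7a: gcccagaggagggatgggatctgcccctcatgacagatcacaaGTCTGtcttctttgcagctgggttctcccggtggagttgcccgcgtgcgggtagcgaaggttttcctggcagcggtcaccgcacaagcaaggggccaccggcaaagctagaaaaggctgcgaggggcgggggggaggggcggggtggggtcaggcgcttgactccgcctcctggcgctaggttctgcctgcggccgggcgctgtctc
Ephb1: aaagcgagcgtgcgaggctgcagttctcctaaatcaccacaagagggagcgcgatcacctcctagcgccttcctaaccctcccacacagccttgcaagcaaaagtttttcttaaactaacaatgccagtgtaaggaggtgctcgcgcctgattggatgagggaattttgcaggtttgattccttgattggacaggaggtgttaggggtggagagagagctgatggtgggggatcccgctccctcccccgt
Nrp2: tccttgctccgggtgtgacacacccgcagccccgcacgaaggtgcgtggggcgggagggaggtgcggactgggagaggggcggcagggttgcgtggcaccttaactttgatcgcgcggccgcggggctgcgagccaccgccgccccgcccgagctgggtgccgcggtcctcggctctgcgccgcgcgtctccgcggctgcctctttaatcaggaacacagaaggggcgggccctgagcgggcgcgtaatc
Ephb3: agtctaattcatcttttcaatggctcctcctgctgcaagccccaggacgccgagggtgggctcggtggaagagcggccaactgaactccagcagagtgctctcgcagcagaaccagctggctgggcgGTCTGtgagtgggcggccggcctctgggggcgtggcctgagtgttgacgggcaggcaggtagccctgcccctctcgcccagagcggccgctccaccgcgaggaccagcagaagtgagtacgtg
Plxnb2: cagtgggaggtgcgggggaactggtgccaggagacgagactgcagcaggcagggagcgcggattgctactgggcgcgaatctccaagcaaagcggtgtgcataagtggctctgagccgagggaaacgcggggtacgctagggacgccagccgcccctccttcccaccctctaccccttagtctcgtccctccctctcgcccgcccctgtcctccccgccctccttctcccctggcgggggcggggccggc
Epha4: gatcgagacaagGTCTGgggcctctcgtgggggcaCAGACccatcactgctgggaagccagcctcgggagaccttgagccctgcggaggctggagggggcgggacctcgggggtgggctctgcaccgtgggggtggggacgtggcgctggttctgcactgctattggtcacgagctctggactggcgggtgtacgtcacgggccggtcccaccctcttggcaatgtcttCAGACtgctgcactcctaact
Sema7a and Ephb3 held CAGAC once each, Epha4 held it 3 times, and Ephb1, Nrp2 and Plxnb2 did not hold it in this window. Of the 53 members 47 had a promoter in the table. CAGAC occurred in 21 of them (44.7%), beside 42.2% of all 32851 promoters of this length. The GC-rich Smad1 motif GGCGCC occurred in 11 of the 47 (23.4%) beside 9.59% of all promoters, and in none of the 5 lower genes shown. The members' promoters were also richer in G and C, with a median of 64.4% against 52.4%. The longer paired BMP response element, which joins a GC-rich site to a GTCT that overlaps the CAGAC motif, was in none of the 47 and in 0.192% of all promoters. All motifs were searched on both strands. A match says only that these letters are present.

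Partner and downstream genes of both systems were described from a list of 126 genes, of which 88 were tested. At least 2-fold changes were seen in 15, with 8 higher (9.09%, beside 4.08% of all tested genes) and 7 lower (7.95%, beside 9.81%), and the median was -0.05. Among the 76 measured in both channels the counts were 8 and 4, where 4.62% and 8.65% of all such genes were higher and lower. Averaged over a gene's tested probes, 4 were higher (4.55%, beside 3.34% of all genes), Rock1, Chl1, Sdcbp and Tiam1. Among the plexin effectors 5 were higher by their brightest probe. Rock1, a kinase that acts on the actin cytoskeleton, read 9.31 and 9.16 in wild type and 10.81 and 10.68 in K14-caSmad1, a mean log2 ratio of 1.51. Rras2, of the R-Ras subfamily of Ras GTPases, stood at 1.28 and 1.24, with its other tested probe at 0.76. Rac1, a GTPase of lamellipodia, stood at 1.21 and 1.16, with its other probe at 0.41. Rap1a, a GTPase of the Rap family that plexins inactivate, stood at 1.17 and 1.15, but its other tested probe read -0.02. The fifth was Rap1b at 1.12 and 1.03, with its other probe at 0.47, named here after its value was seen. These 5 were among 30 tested plexin effectors, 19 of which had ratios below 0, with a median of -0.21 for the group.

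On the ephrin side Sdcbp (syntenin), which binds the tail of ephrin-B, was higher, at 1.61 and 1.55. Tiam1, an exchange factor for Rac that works below Eph receptors and ephrins, stood at 1.20 and 1.31. Rgs3, a regulator of G proteins that can bind ephrin-B, was lower, at -1.86 and -1.96. Pick1, a PDZ protein that binds Eph receptors and ephrin-B, was lower at -1.29 on both arrays, but its other tested probe read 0.13.

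Among co-receptors, Chl1, an adhesion protein that partners neuropilin 1, stood at 1.64 and 1.57, with another probe at 0.85. Nrcam, a partner of neuropilin 2, was above background in wild type alone and at least 3.16-fold lower. Gipc1, which binds the tail of neuropilins, read 12.35 and 11.99 in wild type and 10.84 and 10.41 in K14-caSmad1, a mean log2 ratio of -1.54. Rnd2, a GTPase of the Rnd family, which binds plexins, was at least 2.62-fold lower. Pgf (placental growth factor), a VEGF family ligand of neuropilins, was at least 1.39-fold lower, and Rgma, a guidance protein that is also a BMP co-receptor, stood at -1.16 and -1.13. Itgb1, the integrin chain to which Sema7a binds, was under 2-fold at 0.84 and 0.79 and was picked after its value was seen.

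**Figure D4:**
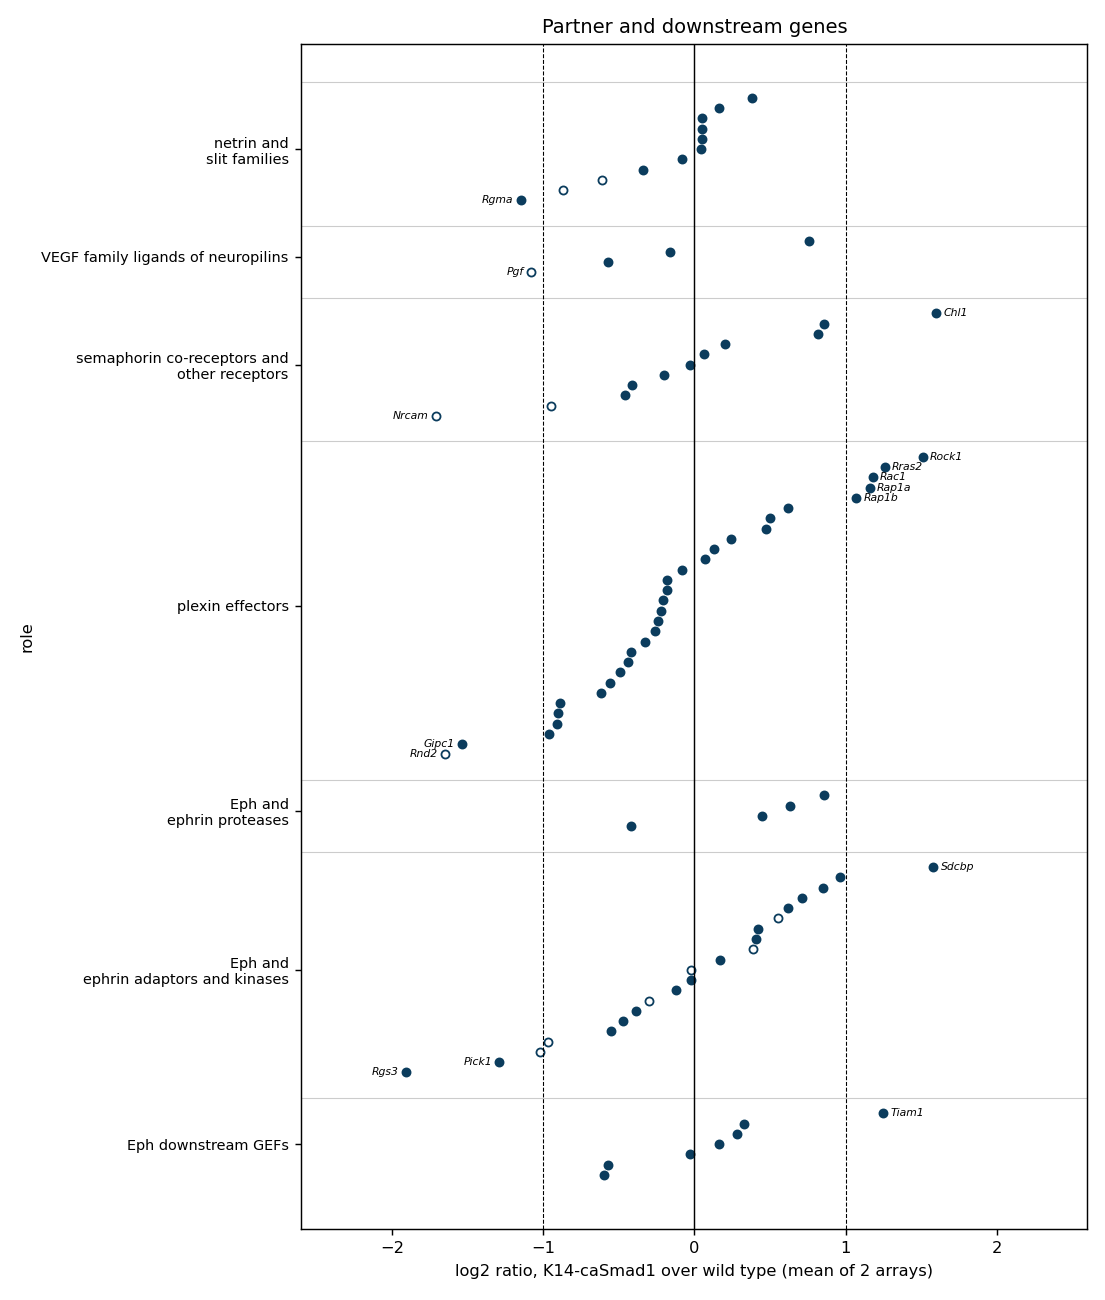
Log2 ratio of K14-caSmad1 over wild type (mean of 2 arrays, horizontal axis) for the 88 tested partner and downstream genes, grouped by role and ordered by ratio within a role. Dashed lines mark 2-fold, hollow symbols mark genes not above background in 1 channel on at least 1 array, and the 15 named genes passed 2-fold on both arrays, 8 to the right and 7 to the left.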

How the data were processed

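Spots were read by Agilent Feature Extraction 10.5.1.1, per the file headers, and probes are placed on mm9. They hold mean signal and local background intensity per spot, deposited without normalization, and the software's processed signal intensities. The deposited table holds log10 ratios of the processed signals of Cy5 over Cy3, which matched the scanner files' signals to within 0.00397. No other normalization by the authors is given in the sources used here.

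Background was corrected with limma 3.58.1 (R 4.3.3) by normexp with an offset of 50, leaving out 36 spots of replicate 1 on a non-uniform local background. Ratios were normalized by loess (span 0.3), outlier spots were dropped, repeated spots averaged, and the brightest tested probe represented a gene. Signals in each channel were scaled between arrays (Aquantile). The intercept was tested with lmFit and eBayes over all tested genes, and the code was tested on simulated data. Every tested member was named, and of the partner list those at least 2-fold apart on both arrays, at most 4 per direction and role. Members and lists were chosen with earlier results of these data known. Number of arrays, 2, limits the precision. All member probes kept the name in the scanner files. Promoters are from the RefSeq table of GRCm38.p6. The summed level of 1 marker list is not reported here.

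Alternatives were the background fit, no background subtraction, median centring, processed signals, the deposited table, the detection filter, the mean of a gene's probes, each array alone, a 1.5-fold threshold, an intensity trend, and, added after seeing the data, ratios less the median of all tested genes.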

Additional observations from a re-analysis of the deposited data

How the results depend on the processing

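The comparison was paired by design, since each ratio sets both RNAs of an array against each other. No further pairing was possible because there is 1 comparison. The signs of Efna4, Plxna2, Plxnb1 and Sema4c turned with median centring (0.04, 0.10, 0.03 and 0.11) and that of Sema3f with the mean of its probes (-0.38). The members 2-fold apart, 6 as reported with 0 higher, were 1 with normexp on all spots (1 lower) and 10, of them 2 higher, with processed signals, the deposited table, or processed signals less the median of all genes. Of all genes 2.58% were higher and 4.02% lower with normexp on all spots, and 10.7% and 16.0% with processed signals. Median centring gave 1 higher (3.12% of tested members, beside 9.45% of all genes), as did loess or median centring less the median of all genes. At 1.5-fold 11 members were called, 2 of them higher. No share of all genes at 1.5-fold is given here, so this count and that of the partner genes below cannot be set against one. Without replicate 1 or 2 the number higher was 0 to 1, the 1 being Epha4. The members' median, -0.24, was -0.15 with normexp on all spots, -0.17 without background subtraction, 0.00 with median centring, -0.26 with processed signals and the deposited table, -0.19 without a detection filter and -0.32 with the mean of probes. Less the median of all genes it was -0.21 (loess), -0.22 (median centring) and -0.28 (processed signals). Partner genes, 15 as reported, were 9 with normexp on all spots (3 lower), 30 with processed signals and the deposited table (15 higher, 15 lower) and 35 at 1.5-fold (18 higher, 17 lower). Those higher were 14 with median centring and 4 with the mean of probes, and those lower were 4 when both channels had to be above background. Genes past limma's threshold, 10239 as reported, were 3268 with normexp on all spots and 17755 without a detection filter. The share of higher calls over all genes, 29.4%, was 39.0% with normexp on all spots and 40.1% with processed signals. With 1 array limma could not be fitted, for want of residual degrees of freedom. For genes near background, the signal limits what change can be seen.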
